A study of Caenorhabditis elegans with 9 samples.

Results

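The sensors, transcription factors and BiP chaperones of the endoplasmic reticulum (ER) stress response were followed in larvae of the nematode Caenorhabditis elegans that cannot cycle O-GlcNAc normally. The 8 genes were ire-1, xbp-1, pek-1, atf-4, atf-6, gcn-2, hsp-3 and hsp-4. They were found by gene symbol in the annotation of the array platform, which gave 13 probe sets of 22548 tested, or 8 genes of 17118 measured. A probe set is a group of short probes read together as a signal for a transcript. The genes ire-1, xbp-1, pek-1, atf-6 and gcn-2 had 2 probe sets each, and atf-4, hsp-3 and hsp-4 had 1. In the RefSeq annotation of assembly WBcel235, ire-1, gcn-2 and hsp-4 lie on chromosome II, xbp-1 on III, and pek-1, atf-4, atf-6 and hsp-3 on X.

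The groups were ogt-1(ok430) mutants, which lack the O-GlcNAc transferase that adds the sugar to proteins, oga-1(ok1207) mutants, which lack the O-GlcNAcase that removes it, and the wild type (N2 in the labels). Each group held 3 arrays labelled as biological replicates, and each array was made from 20 well-fed larvae of the fourth larval stage, picked by hand and matched for how far the vulva had formed. Each mutant was represented by a single allele, and each array read RNA of whole animals, so a smaller number of cells of a type and less RNA per cell cannot be told apart. The labels do not say whether replicates came from separate cultures, so the p-values measure the spread between these samples only.

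The unfolded protein response has 3 branches, each led by a sensor in the ER membrane. IRE-1 is a kinase and ribonuclease that cuts the xbp-1 message so that it can be spliced into a form encoding an active transcription factor. PEK-1, the worm PERK, phosphorylates the initiation factor eIF2, which lowers translation in general and favours that of ATF-4. ATF-6 is a membrane-held transcription factor that is released by cleavage. GCN-2 is a cytosolic kinase that phosphorylates the same eIF2 site when amino acids run short. HSP-3 and HSP-4 are the worm BiP proteins, Hsp70 chaperones of the ER lumen, and in worms hsp-4 is the member that ER stress induces strongly and is the usual reporter of the response. The sensors and ATF-4 are regulated largely by phosphorylation, cleavage or translation, so transcript signals do not read how active the branches were.

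All values are log2 signals, on which a difference of 1 is a 2-fold difference. The 9 arrays had the same mean, 5.91, and medians from 5.21 to 5.30, and the median standard error of a difference between groups was 0.11. In ogt-1 mutants the targeted ogt-1 transcript fell, to 7.03 ± 0.08 against 7.90 ± 0.07 in the wild type (SD, n = 3 each, limma adjusted p = 8.9e-05, brighter of 2 probe sets). In oga-1 mutants the 3 oga-1 probe sets differed from the wild type by -0.32, -0.28 and -0.25 and were not called. Whether any of these probe sets lies in a deleted part was not analysed here. The ER genes were read with the same model as all other probe sets, and a gene was called when its brightest probe set had a Benjamini-Hochberg adjusted p under 0.05.

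In ogt-1 mutants pek-1 and atf-4, the sensor and the transcription factor of the eIF2 branch, rose over the wild type, and the other 6 genes were not called. Among oga-1 mutants none of the 8 genes was called. Of these genes 1 had an unadjusted p under 0.05 in limma, beside 14.7% of all probe sets. Between the mutants pek-1 was higher and hsp-4 lower in ogt-1. The 2 of 8 genes called in ogt-1 mutants stand beside 17.3% of all probe sets called in that comparison (8.1% higher and 9.15% lower), and the 0 of 8 in oga-1 mutants beside 0.257% (0.191% higher and 0.0665% lower). In the comparison of the mutants 2 of 8 genes were called, against 23.9% of all probe sets (9.63% higher and 14.2% lower). The number of members called was thus close to the background in each comparison. These shares include dim probe sets, while the brightest probe set of each of the 8 genes lay above the median level, 5.27. Tested alone, the probe sets above that level gave 3686 calls in ogt-1 larvae against the wild type, beside 3891 of all 22548. The share called was thus larger when only bright probe sets were tested.

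Arrays of the groups lay fully apart for 3 of 8 genes when ogt-1 mutants were set against the wild type, where 33.1% of all probe sets did so. They lay apart for 2 of 8 genes between oga-1 mutants and the wild type, against 20.5% of all probe sets, and for 3 of 8 genes between the mutants, against 35.6%. These shares too were near the background, so the values of the single genes follow.

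**Figure D1:**
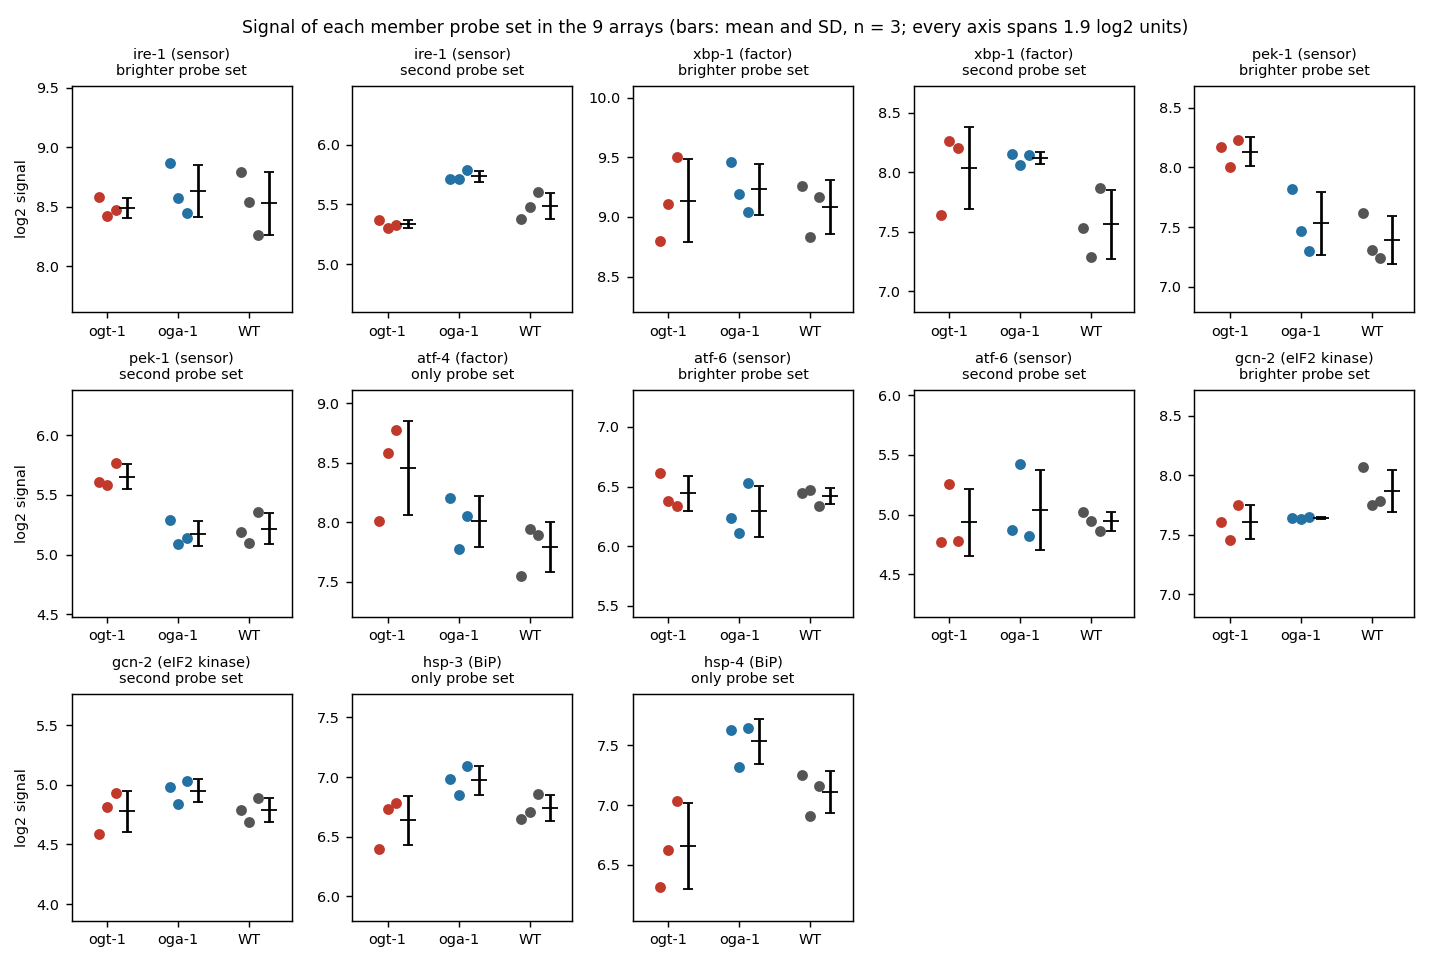
Log2 signal (vertical axes, each spanning 1.9 units) of the 13 probe sets in ogt-1, oga-1 and wild-type larvae, with 1 point per array and bars for the mean and SD of 3 arrays. The pek-1 points of ogt-1 larvae lie above all others in both of its panels, and the hsp-4 points of oga-1 larvae lie above those of ogt-1 and wild-type larvae.

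The signal for pek-1, the PERK kinase, was higher in ogt-1 larvae by both of its probe sets. Both carry suffixes that the maker gives to probes that can match other sequences. How far they read such sequences was not analysed here. The brighter probe set read 8.17, 8.0 and 8.23 in ogt-1 larvae, 7.82, 7.47 and 7.30 in oga-1 larvae and 7.62, 7.31 and 7.24 in the wild type. All 3 ogt-1 arrays lay above all 6 others, while oga-1 and wild-type arrays overlapped. The difference between ogt-1 larvae and the wild type was 0.75 with a standard error of 0.141, a 1.68-fold rise (limma adjusted p = 0.0031), and 14.3% of all probe sets had ogt-1 arrays wholly above the wild-type arrays.

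The dimmer pek-1 probe set read 5.61, 5.58 and 5.77 in ogt-1 larvae. It read 5.29, 5.09 and 5.14 in oga-1 larvae and 5.19, 5.10 and 5.36 in the wild type. Here too the ogt-1 arrays were above the rest, by 0.44 over the wild type, a 1.35-fold rise (limma adjusted p = 0.011). That call was lost without wild-type array 2 (limma adjusted p = 0.058), whereas the brighter probe set kept its call in all 19 alternatives tried, with differences from 0.59 to 0.86. Against oga-1 larvae the rise in ogt-1 was 0.60 by the brighter and 0.48 by the dimmer probe set (limma adjusted p = 0.0082 and 0.0047). Both of these calls were lost without the 3 arrays of widest spread (SD over 1.8 across probe sets: ogt-1 array 3 and oga-1 arrays 1 and 3), a setting chosen after the data were seen, at 0.61 and 0.50 (limma adjusted p = 0.066 and 0.059).

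In oga-1 larvae pek-1 was not called against the wild type. The difference was 0.14 with a 95% confidence interval from -0.17 to 0.45 by the brighter probe set, and -0.04 (-0.27 to 0.18) by the dimmer.

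The transcription factor gene atf-4, whose product is made under eIF2 phosphorylation, also rose in ogt-1 larvae, with a wide spread. Its only probe set carries the maker's suffix for probes shared among transcripts, as do the dimmer ire-1 and the brighter atf-6 probe set. How far these read other transcripts was not analysed here. The atf-4 values are as follows. It read 8.01, 8.58 and 8.77 in ogt-1 larvae, 8.20, 7.78 and 8.05 in oga-1 larvae and 7.55, 7.94 and 7.89 in the wild type. The ogt-1 arrays did not overlap with the wild type, but the lowest of them, array 1, was close to the highest wild-type array and lay among the oga-1 arrays. The difference from the wild type was 0.66 with a standard error of 0.186, a 1.58-fold rise (limma adjusted p = 0.029).

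This call depended on single arrays and on the scaling. It was lost without wild-type array 1 (limma adjusted p = 0.12), without ogt-1 array 2 or 3 (0.11 each), without the 3 arrays of widest spread (0.12), and when arrays were centred on their medians (0.053), while the difference stayed between 0.50 and 0.88. In oga-1 larvae atf-4 differed from the wild type by 0.22 (-0.19 to 0.62). Between the mutants the difference was 0.44 (0.04 to 0.85) and did not pass the test (limma adjusted p = 0.11). That difference was called in 3 of 19 alternatives, at 0.67 without ogt-1 array 1 (limma adjusted p = 0.011), and was 0.28 without ogt-1 array 3 (limma adjusted p = 0.33).

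The remaining eIF2 kinase gene, gcn-2, was not called in either mutant. It read 7.61, 7.46 and 7.75 in ogt-1 larvae, 7.64, 7.63 and 7.65 in oga-1 larvae and 8.07, 7.75 and 7.78 in the wild type. The oga-1 arrays hardly varied, and the ogt-1 and the oga-1 arrays were each wholly below the wild type, by a small margin. The differences were -0.26 in ogt-1 and -0.22 in oga-1 larvae (limma adjusted p = 0.14 and 0.36). Its second probe set, dimmer than the median probe set, differed by -0.02 and 0.16. Both comparisons use the same wild-type arrays, of which array 1 was the highest, and without it the differences were -0.16 and -0.12. As the mean of both probe sets they were -0.14 and -0.03.

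The chaperone gene hsp-4 showed the widest range of any of the 13 probe sets over the 9 arrays, 1.34. It read 6.31, 6.62 and 7.03 in ogt-1 larvae, 7.63, 7.32 and 7.65 in oga-1 larvae and 7.25, 6.91 and 7.16 in the wild type. All oga-1 arrays lay above all wild-type arrays and all ogt-1 arrays, whereas the highest ogt-1 array, array 3, overlapped with the wild type. Between the mutants hsp-4 was lower in ogt-1 by 0.88 with a standard error of 0.168, or 1.84-fold (limma adjusted p = 0.0025), a call kept in all 19 alternatives. In 19.1% of all probe sets the ogt-1 arrays lay wholly below the oga-1 arrays.

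Against the wild type, neither mutant passed the test for hsp-4. The difference was -0.45 in ogt-1 larvae (-0.82 to -0.09, limma adjusted p = 0.092) and 0.43 in oga-1 larvae (0.06 to 0.79, limma adjusted p = 0.27). The value in ogt-1 larvae depended on single arrays: it was -0.28 without ogt-1 array 1 (limma adjusted p = 0.31). It was called without ogt-1 array 3, at -0.64 (limma adjusted p = 0.015), and after quantile normalization, at -0.45 (limma adjusted p = 0.048). It was also called without the 3 arrays of widest spread and with the array SD as a covariate (limma adjusted p = 0.018 and 0.0078). In oga-1 larvae hsp-4 was called in 0 of 19 alternatives. As for hsp-4, oga-1 arrays lay wholly above the wild-type arrays in 9.53% of all probe sets.

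The paralogue hsp-3, the more constitutive BiP gene in worms, ran in the same order with smaller differences. It read 6.40, 6.73 and 6.78 in ogt-1 larvae, 6.98, 6.85 and 7.09 in oga-1 larvae and 6.65, 6.71 and 6.86 in the wild type. The oga-1 arrays lay above the ogt-1 arrays, and the wild type overlapped with both. The difference between ogt-1 and oga-1 larvae was -0.33 (-0.59 to -0.08, limma adjusted p = 0.06), and the differences from the wild type were -0.10 in ogt-1 and 0.23 in oga-1 larvae (limma adjusted p = 0.68 and 0.38). Between the mutants hsp-3 was called in 4 of 19 alternatives, with the lowest adjusted p in limma at 0.026 under array weights, and was at -0.21 without ogt-1 array 1 (limma adjusted p = 0.23). BiP genes are close relatives and their probe sets carry the maker's suffix for probes shared among transcripts. How far each reads the other was not analysed here.

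By its brighter probe set, no difference beyond the spread of the arrays was detected for the sensor gene ire-1. It read 8.58, 8.42 and 8.47 in ogt-1 larvae, 8.87, 8.57 and 8.45 in oga-1 larvae and 8.79, 8.54 and 8.26 in the wild type, and the 3 groups overlapped. The differences were -0.04 (-0.35 to 0.27) in ogt-1 and 0.10 (-0.21 to 0.41) in oga-1 larvae.

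The dimmer ire-1 probe set was tighter and told the mutants apart. It read 5.37, 5.30 and 5.33 in ogt-1 larvae, 5.71, 5.71 and 5.79 in oga-1 larvae and 5.38, 5.48 and 5.60 in the wild type. The 3 groups did not overlap, with ogt-1 lowest and oga-1 highest, but ogt-1 at 5.37 nearly touched the wild type at 5.38. Of all probe sets 18.8% had ogt-1 arrays wholly below and 9.53% had oga-1 arrays wholly above the wild type. The difference between ogt-1 and oga-1 larvae was -0.40 (limma adjusted p = 0.0055, and 0.11 without the 3 arrays of widest spread), while -0.16 and 0.25 against the wild type did not pass (limma adjusted p = 0.3 and 0.23). Between the mutants the brighter ire-1 probe set was at -0.14 and not called, with an interval from -0.45 to 0.17 that contains -0.40. Whether the 2 probe sets differ from each other was not tested.

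The transcription factor gene xbp-1, the target of IRE-1, also had probe sets that differed. The brighter one read 8.80, 9.11 and 9.50 in ogt-1 larvae, 9.46, 9.19 and 9.04 in oga-1 larvae and 9.26, 8.83 and 9.17 in the wild type, with full overlap. Its differences from the wild type were 0.05 (-0.33 to 0.43) in ogt-1 and 0.15 (-0.24 to 0.53) in oga-1 larvae.

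The dimmer xbp-1 probe set gave larger differences. It read 7.64, 8.26 and 8.20 in ogt-1 larvae, 8.15, 8.06 and 8.14 in oga-1 larvae and 7.53, 7.29 and 7.87 in the wild type. The oga-1 arrays were all above the wild type and close together, and ogt-1 array 1 lay among the wild-type arrays. The differences of 0.47 (0.10 to 0.84) in ogt-1 and 0.55 (0.18 to 0.93) in oga-1 larvae did not pass the test (limma adjusted p = 0.087 and 0.18). Of 18 alternatives, 4 called the first and 1 the second. Which part of the xbp-1 message either probe set reads, and so whether splicing bears on it, was not analysed here.

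For atf-6, the remaining ER sensor, no difference was detected. The brighter probe set read 6.61, 6.38 and 6.34 in ogt-1 larvae, 6.24, 6.11 and 6.53 in oga-1 larvae and 6.45, 6.47 and 6.34 in the wild type. The groups overlapped, with differences of 0.02 (-0.24 to 0.28) in ogt-1 and -0.13 (-0.39 to 0.13) in oga-1 larvae. Its second probe set lay below the median level and differed by -0.01 and 0.10. In ogt-1 larvae the interval of the brighter probe set excludes a change as large as the 0.75 of pek-1.

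**Figure D2:**
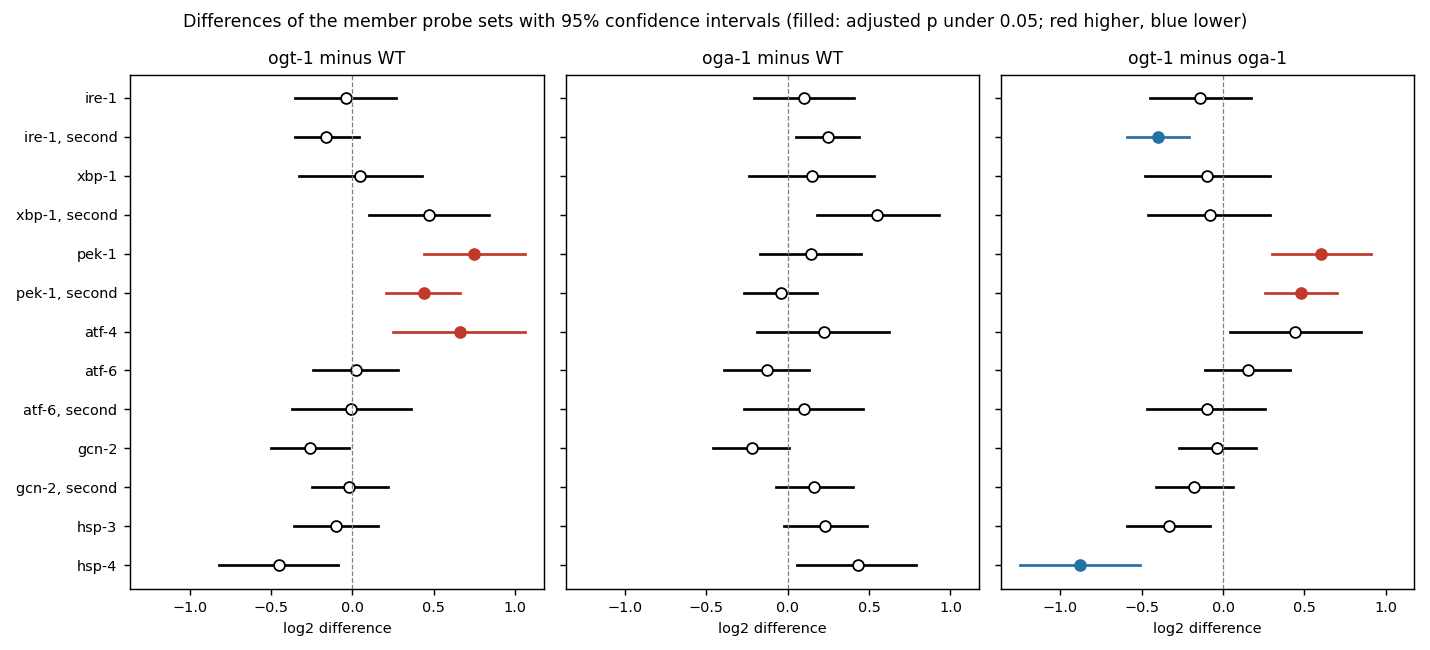
Log2 differences (horizontal axes) of the 13 probe sets for ogt-1 minus wild type, oga-1 minus wild type and ogt-1 minus oga-1, with 95% confidence intervals of the limma fit on all 9 arrays. Filled points had an adjusted p under 0.05: pek-1 by both probe sets (ogt-1 larvae against either other group), atf-4, the second ire-1 probe set and hsp-4.

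The order of the 3 groups differed from gene to gene. By the brightest probe set, ogt-1 larvae were lowest for ire-1, gcn-2, hsp-3 and hsp-4 and highest for pek-1, atf-4 and atf-6, and neighbours in these orders mostly did not differ beyond their spread. The median difference of the 8 genes was -0.01 in ogt-1 and 0.14 in oga-1 larvae, against -0.02 and -0.01 over all probe sets. The spread within groups was itself large for some members. The pooled SD of atf-4 was 0.290, that of xbp-1 0.270 and that of hsp-4 0.257, against a median of 0.136 over all probe sets, while that of gcn-2 was 0.131.

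Some control readings and markers of sperm and oocytes also differed between the groups. The signal of the actin control near the 3' end minus that near the 5' end was 4.04 ± 0.12 in ogt-1, 4.2 ± 0.26 in oga-1 and 4.77 ± 0.05 in wild-type larvae (SD, n = 3 each, exact permutation p = 0.1 for each mutant against the wild type, two-sided, which is the lowest value possible with 3 arrays in each group). The 18 added hybridisation controls averaged 9.38 ± 0.12 in ogt-1 larvae and 9.11 ± 0.09 in the wild type (SD, n = 3 each, exact permutation p = 0.1). In oga-1 larvae they differed from the wild type by 0.04 (exact permutation p = 0.6). The same 3' minus 5' reading for Gapdh differed from the wild type by -0.38 in ogt-1 and -0.13 in oga-1 larvae (exact permutation p = 0.1 and 0.2). Between the mutants the actin, Gapdh and hybridisation readings differed by -0.16, -0.25 and 0.24 (exact permutation p = 0.5, 0.2 and 0.2). Of 9 sperm markers 5 were called higher in ogt-1 larvae, with list means of 9.37 to 9.48 against 8.80 to 9.33 in the wild type. Of 9 markers of oocytes and the adult stage 4 were called lower, with list means of 10.35 to 10.62 against 10.74 to 10.90. Against oga-1 larvae 4 of the sperm markers were called higher and 6 of the oocyte markers lower in ogt-1. In oga-1 larvae against the wild type no marker of any list was called, where 0.257% of all probe sets were. The oocyte list means were nevertheless 10.95 to 11.12 in oga-1 larvae, wholly above the wild type. Of these 9 markers 7 were higher and 4 had an unadjusted p under 0.05 in limma, with a median difference of 0.18. Over all probe sets 14.7% had such a p. So did 4 of 8 neuron, 2 of 8 germline, 2 of 9 sperm and 1 of 8 muscle markers, and 0 intestine and 0 hypodermis markers. The medians of the neuron, germline and sperm lists were 0.02, 0.09 and -0.12. Of 8 germline markers 2 were called lower and 0 higher in ogt-1 larvae against the wild type, and 4 lower and 0 higher against oga-1 larvae. Of the 7 intestine markers measured 2 were called higher and 2 lower, and of 8 muscle markers 1 lower, in each of these comparisons. None of the 8 hypodermis markers was called in either, and of 8 neuron markers 0 were called against the wild type and 2 were lower against oga-1 larvae. The part of these controls and markers in the differences of the ER genes was not tested.

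The rest of the secretory pathway was read from lists of general knowledge, described by their counts and medians. The lists were chosen with earlier results of these data known, so the counts are descriptions and not independent support. Most measured genes of the machinery that carries new proteins into the ER fell in ogt-1 larvae. Of 20 measured genes for translocation, signal peptide removal and glycan transfer, 13 fell and 1 rose, with a median difference of -0.47 against -0.02 over all probe sets and a background of 9.15% lower. Shares over all probe sets, here and for the lists below, include dim probe sets. These 20 genes lay above the median level, and probe sets above that level, tested alone, gave 2012 lower and 1674 higher. Leaving out ogt-1 array 2 brought the 13 to 7 called genes, while the lower calls over all probe sets went from 2064 to 1248. The oocyte and germline markers called lower in the same arrays were 4 of 9 and 2 of 8, and 6 of 9 and 4 of 8 against oga-1 larvae, and their part in this fall was not tested. In oga-1 larvae none of the 20 was called, with a median of 0.16. Of the 20, 6 were at an unadjusted p under 0.05 in limma, beside 14.7% of all probe sets. Against oga-1 larvae 16 were lower in ogt-1 and 0 higher, with a median of -0.62, and the 16 became 9 without the 3 arrays of widest spread.

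The fall with the smallest p was that of trap-4, a subunit of the complex that sits beside the translocation channel. It averaged 8.20 ± 0.06 in ogt-1, 9.50 ± 0.05 in oga-1 and 9.37 ± 0.06 in wild-type larvae (SD, n = 3 each), a 2.26-fold fall in ogt-1 (limma adjusted p = 4.2e-06). The gene of the channel pore, sec-61.A, averaged 6.88 ± 0.20 in ogt-1, 7.71 ± 0.11 in oga-1 and 7.98 ± 0.11 in wild-type larvae, a 2.14-fold fall in ogt-1 (limma adjusted p = 7.3e-05). In oga-1 larvae they differed from the wild type by 0.13 and -0.27, and neither was called. The riser was spcs-1, a subunit of the signal peptidase, at 9.75 ± 0.01 in ogt-1 against 9.39 ± 0.07 in the wild type (limma adjusted p = 0.012, and 0.058 without wild-type array 1).

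Of 16 chaperones and folding enzymes of the ER, 4 fell in ogt-1 larvae and 0 rose, with a median of -0.16, beside 9.15% lower, 8.1% higher and a median of -0.02 over all probe sets. The list includes the dim dnj-7, dnj-27 and uggt-2, at 3.85, 3.84 and 4.32 in the wild type, below the median level of 5.27. The disulfide isomerase genes C14B9.2 and pdi-1 fell by 0.81 and 0.58 on the log2 scale (limma adjusted p = 0.002 and 0.016). The other 2 that fell, named here after their values were seen, were the isomerase gene pdi-3 (-0.48) and the calnexin gene cnx-1 (-0.39). The second probe set of C14B9.2 did not follow, at -0.12 (limma adjusted p = 0.6), and that of pdi-1 was at -0.40 (limma adjusted p = 0.11). The call of pdi-1 was lost without wild-type array 2 (limma adjusted p = 0.059), and the count of 4 became 1 without that array. It became 2 when wild-type array 3, ogt-1 array 1 or ogt-1 array 2 was left out. These counts were near the shares of all probe sets lower in the same settings. Those were 1393, 1663, 1572 and 1248 of 22548, against 2064 with all arrays. Calreticulin and the Grp94 homologue did not pass, with crt-1 at 0.30 (limma adjusted p = 0.069) and enpl-1 at -0.18 (limma adjusted p = 0.41).

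In ER-associated degradation, which returns misfolded proteins to the cytosol for the proteasome, 1 of 16 genes rose and 2 fell in ogt-1 larvae, with a median of -0.26. These counts are near the 8.1% higher and 9.15% lower of all probe sets. By direction alone, 1 of the 16 genes lay above the wild type and the others below, against a median of -0.02 over all probe sets. The riser was ufd-1, an adaptor of the segregase Cdc48, which averaged 10.51 ± 0.22 in ogt-1, 10.03 ± 0.06 in oga-1 and 9.66 ± 0.11 in wild-type larvae (SD, n = 3 each). That is a 1.79-fold rise in ogt-1 (limma adjusted p = 0.00039), kept in all 19 alternatives. The segregase gene cdc-48.2 and the glycanase gene png-1 fell by 0.45 and 0.38 on the log2 scale (limma adjusted p = 0.023 and 0.031). Leaving out wild-type array 2 or ogt-1 array 1 ended both calls, so that the count of 2 became 0, while it became 4 without oga-1 array 2. The call of cdc-48.2 was also lost without wild-type array 3, and that of png-1 without wild-type array 1, ogt-1 array 2 or ogt-1 array 3. The second probe set of cdc-48.2 was at -0.22 and not called. Against oga-1 larvae 8 of the 16 were lower in ogt-1 and 1 higher, and the 8 became 1 without the 3 arrays of widest spread. The count was 4 without ogt-1 array 2, 3 without oga-1 array 1 and 5 without oga-1 array 3.

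Subunits of eIF2 and of its exchange factor eIF2B, and the abu genes, a family described in worms as induced when the unfolded protein response is blocked, showed no calls in ogt-1 or oga-1 larvae against the wild type. Of 8 measured genes for these subunits and the GCN-2 cofactor GCN-1, among which the kinases' own substrate subunit was not matched, none was called in ogt-1 larvae, with 3 at an unadjusted p under 0.05 in limma and a median of 0.10. In oga-1 larvae 2 of them were at an unadjusted p under 0.05, with a median of 0.17. Over all probe sets 27.5% in ogt-1 and 14.7% in oga-1 larvae were at an unadjusted p under 0.05 in limma. Of 11 abu genes 0 reached an unadjusted p under 0.05 in either mutant, with medians of -0.05 in ogt-1 and -0.04 in oga-1 larvae. The abu probe sets were dim, at list means between 4.91 and 5.22 on the 9 arrays.

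**Figure D3:**
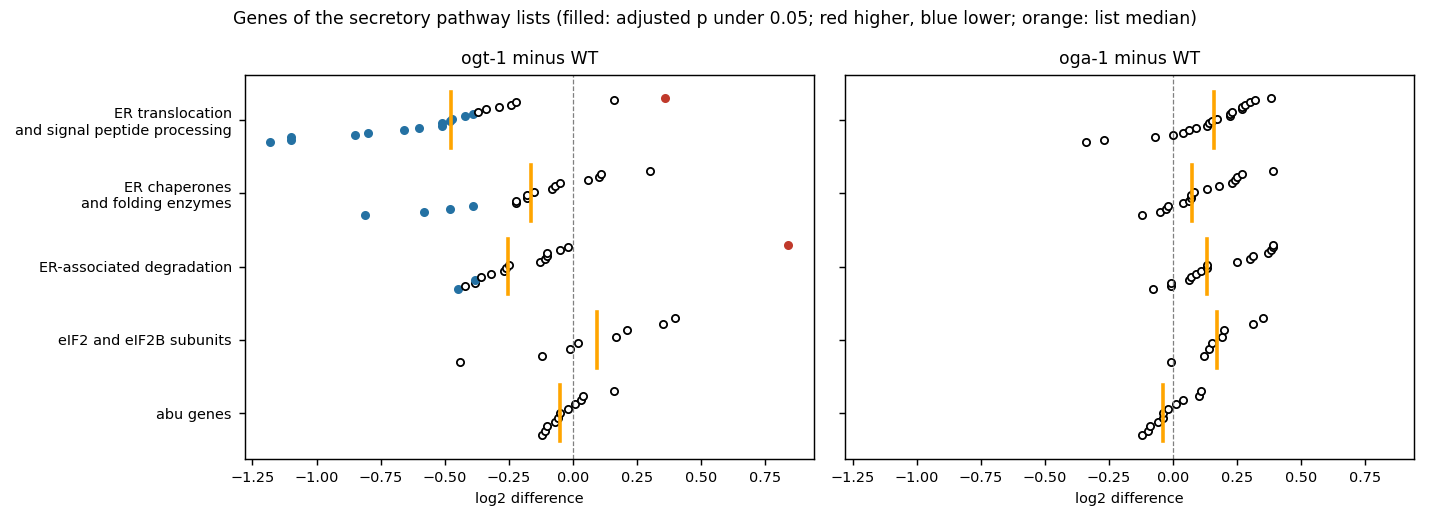
Log2 differences (horizontal axes) of single genes in 5 lists for ogt-1 minus wild type and oga-1 minus wild type, with filled points for an adjusted p under 0.05 and orange bars for list medians. The translocation list is shifted to a median of -0.47 in ogt-1 larvae and lies at 0.16 in oga-1 larvae, where no gene of the 5 lists was called.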

How the data were processed

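RNA of 20 larvae per sample was turned into cDNA, amplified in 1 round with T7 polymerase, biotinylated and read on 1 Affymetrix array each, per the labels. The authors deposited log2 probe set signals for 22625 probe sets, on a common scale, with values from 3.49 to 14.93. The submitters' processing notes name MAS5, RMA and Partek, without saying what each did, so how the values were summarised and normalized is unknown here. A signal below background could not be told from the deposited table. The 77 control probe sets were left out of the tests, and no filter or pseudocount was applied. Symbols came from the platform's annotation, where 20766 probe sets name 1 gene, 887 several and 895 none, matched by gene identifier to the RefSeq table of WBcel235. For each gene the probe set with the highest mean over the 9 arrays came first. Coordinates are not given, since the array's genome build was not analysed here.

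A linear model of strain alone was fitted to all 9 arrays at once (limma 3.58.1, R 4.3.3; 6 residual degrees of freedom). The fit was checked on simulated data. Adjusted p-values are Benjamini-Hochberg over 22548 probe sets per comparison. Precision is limited by having 3 arrays in each group. The comparisons of the mutants with the wild type share the wild-type arrays. Members and lists were chosen with earlier results of these data known. Genes named from a list are the up to 2 called per direction with the smallest p against the wild type. Of the written lists, those for translocation, degradation, eIF2, abu and heat shock genes matched 20 of 24, 16 of 19, 8 of 10, 11 of 15 and 11 of 17 symbols. All chaperones of the ER and mitochondrial genes matched. Alternatives were quantile normalization, median centring, bright probe sets only, array weights, a robust variance with a trend on intensity, the 2 groups alone, the replicate number as a block, each array left out and the mean of a gene's probe sets. Added after the data were seen were leaving out the 3 arrays with an SD over 1.8 and the array SD as a covariate.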

Additional observations from a re-analysis of the deposited data

How the results depend on the processing

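Of the 19 alternatives, 38 differences of members changed sign, all between -0.13 and 0.11 and none called before or after. Median centring called 1 of 8 genes in ogt-1 larvae against the wild type in place of 2, losing atf-4. Leaving out 1 array at a time gave 1 to 2 of 8 genes and 2710 to 4149 probe sets there, 0 of 8 and 9 to 89 for oga-1 larvae against the wild type, and 2 to 3 of 8 and 3827 to 5581 between the mutants. For oga-1 larvae the 58 calls became 9 without wild-type array 1, 13 without wild-type array 2, 21 without oga-1 array 1 and 89 without ogt-1 array 1. They became 91 after quantile normalization (50 higher and 41 lower, against 43 and 15), 94 with the robust trend, 848 with array weights and 13 with the array SD as a covariate. Without the 3 arrays of widest spread, where the only remaining oga-1 array, array 2, had no spread of its own and took that of the other groups, 3 probe sets were called for oga-1 larvae, and 2544 probe sets and 1 of 8 genes between the mutants. The cause was not tested.

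Against the wild type in ogt-1 larvae, leaving out 1 array gave -0.18 to 0.09 for ire-1, -0.13 to 0.22 for xbp-1, -0.06 to 0.07 for atf-6 and -0.17 to 0.02 for hsp-3, and -0.17 to 0.08 and -0.09 to 0.08 for the second probe sets of atf-6 and gcn-2. In oga-1 larvae it gave -0.04 to 0.23 for ire-1, and -0.10 to 0.03 and -0.10 to 0.20 for the second probe sets of pek-1 and atf-6. Between the mutants it gave -0.28 to 0.07 for xbp-1, -0.11 to 0.04 for gcn-2, and -0.20 to 0.11 and -0.26 to 0.09 for the second probe sets of xbp-1 and atf-6. Quantile normalization gave -0.03 for ire-1 and 0.01 for the second pek-1 probe set in oga-1 larvae, and 0.10 for gcn-2 and 0.04 for the second xbp-1 probe set between the mutants. Array weights gave 0.04 and 0.01 for the second probe sets of atf-6 and gcn-2 in ogt-1 larvae, 0.01 and -0.02 for those of pek-1 and atf-6 in oga-1 larvae, and 0.07 for that of atf-6 between the mutants. Without the 3 arrays, xbp-1 was at -0.13 and the second atf-6 probe set at 0.07 in ogt-1 larvae, and atf-4 at -0.02 in oga-1 larvae. With the array SD as a covariate, xbp-1 was at -0.04 and the second atf-6 probe set at 0.11 in ogt-1 larvae, xbp-1 at -0.06 and atf-4 at -0.07 in oga-1 larvae, and the xbp-1 probe sets at 0.02 and 0.01 between the mutants.

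Same-numbered arrays did not deviate together (correlations from -0.173 to 0.244 over 9 pairs, and 3 of 9 arrays correlated best with their own number), so the numbers were not read as a pairing. With the replicate block, 4039 probe sets and 2 of 8 genes were called in ogt-1 larvae and 77 and 0 in oga-1 larvae against the wild type. Between the mutants 5578 probe sets and 3 of 8 genes were called, hsp-3 being the gene added (limma adjusted p = 0.037).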

Other observations

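Of 11 genes of the cytosolic heat shock response 3 fell and 0 rose in ogt-1 larvae, with a median difference of -0.17 from the wild type, beside 9.15% of all probe sets lower. The Hsp110 chaperone gene hsp-110 averaged 7.61 ± 0.22 in ogt-1, 8.19 ± 0.05 in oga-1 and 8.16 ± 0.16 in wild-type larvae (SD, n = 3 each, limma adjusted p = 0.0074 for ogt-1 against the wild type). Its second probe set fell by 0.56 on the log2 scale (limma adjusted p = 0.0086). The Hsp90 gene hsp-90 fell by 0.41 (limma adjusted p = 0.021), a call lost when wild-type array 1, wild-type array 2 or ogt-1 array 2 was left out (limma adjusted p from 0.067 to 0.1), and its second probe set was at -0.36 (limma adjusted p = 0.075). The count of 3 was 1 without each of these arrays. This was near the share of all probe sets lower in the same settings, 1389, 1393 and 1248 of 22548, against 2064 with all arrays.

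Of 9 genes of the mitochondrial unfolded protein response 2 fell and 0 rose in ogt-1 larvae, with a median of -0.19, beside the same 9.15% lower. The mitochondrial protease gene lonp-1 fell by 0.68 (limma adjusted p = 0.0025) and the chaperonin gene hsp-60 by 0.42 (limma adjusted p = 0.018). The second hsp-60 probe set was at 0.15 and not called. The call of the brighter one was lost when wild-type array 3 or ogt-1 array 2 was left out. Each of these settings also brought the count to 1. This was near their own shares, 1663 and 1248 of 22548 probe sets lower, against 2064 with all arrays. In oga-1 larvae none of the 20 genes in these 2 lists was called by limma, with medians of 0.14 and 0.10. At an unadjusted p under 0.05 in limma were 2 and 0 of them, beside 14.7% of all probe sets.

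By the root mean square difference of centred log2 values over the 9 arrays, the genes most like hsp-4 were nifk-1 (0.084), Y57E12AL.6 (0.086) and yju-2 (0.097), of 17117 searched, where the median was 0.454. Their differences were -0.46, -0.49 and -0.41 in ogt-1 and 0.49, 0.33 and 0.40 in oga-1 larvae against the wild type. That these resemble the differences of hsp-4 follows from choosing the genes on the same arrays.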
